A study of Mus musculus with 12 samples.

Results

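The genes described here are 38 genes that build the keratin skeleton, the cell junctions and the basal attachment of epithelial cells, taken as a fixed list of symbols out of 35896 genes summed in the mouse uterus. The list is set by gene symbol and applies no threshold on a measured value. It was chosen with earlier results of these data known, so its share of calls beside that of all genes is descriptive only. All 38 were found, and all 38 passed the filter on low counts that left 12052 genes for testing. The samples were whole uteri of wild-type Swiss Webster females, an outbred stock, aged 8 to 12 weeks, with no treatment or transgene recorded. Each uterus carried a stage label, and 3 uteri represent each stage; the stages follow one another from proestrus to estrus, then metestrus, then diestrus. Samples are named by stage and by the number in their title, which ran from 1 to 3 in proestrus, 3 to 5 in estrus and diestrus, and 5 to 7 in metestrus. How stage was assigned, whether a library pooled animals, and the hour and batch of dissection are not given in the sources used here.

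The lumen and the glands of the uterus are lined by a simple columnar epithelium whose growth and secretion follow ovarian estrogen and progesterone. Its cells are stiffened by simple-type keratins, held together by E-cadherin and by desmosomes, which anchor keratin filaments at the membrane, and sealed near the apex by tight junctions, whose claudin strands set which ions and molecules pass between cells. Laminins and integrins fix the basal side of the cells to the basement membrane. The series asked how uterine transcripts change over the cycle, and these genes report on the lining as a structure.

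RNA was read by 3' TagSeq, which samples a short stretch near the end of each polyadenylated transcript. Libraries held between 1652841 and 2200563 estimated counts. Levels are given as CPM, counts scaled by TMM to a common library size, with no length correction. They serve to compare a gene between samples and are not used to rank genes. The floor used here, 3 counts in a library, which bounds what an observed 0 can hide, stood at 1.36 to 1.88 CPM depending on the library, covering counting error only. A difference is called where edgeR's quasi-likelihood test gave an adjusted p-value under 0.05 over all 12052 genes. Gene positions are those of the GENCODE annotation of GRCm38 used to name the genes. Differences are log2 fold changes ± SE between stages of 3 uteri each unless written as a fold. The SE is derived from the test statistic, with the spread estimated over all 12 libraries, and is not the spread of the 3 uteri.

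Most of these genes were high in proestrus and estrus and low in diestrus. The summed level of the 38 genes lay between 2755 and 3633 CPM in the 3 proestrus uteri, between 2663 and 3244 in estrus, between 1453 and 2051 in metestrus and between 1219 and 1437 in diestrus. Proestrus and estrus overlapped, and every metestrus and diestrus uterus lay below both. CPM is a share of all RNA of the organ. Fewer epithelial cells, less RNA per epithelial cell and a larger share of RNA from other cells therefore cannot be told apart in these whole-organ libraries. Over the 4 stages, 28 of the 38 genes differed in the F test, where 23.2% of all genes tested did. Of those 28, the mean was highest in estrus for 13, in proestrus for 12, in metestrus for Cldn1 and Cldn10, and in diestrus for Cldn3. It was lowest in diestrus for 20. The lowest stage was proestrus for Cldn1, Cldn3, Cldn4 and Tjp1, and metestrus for Cdh1, Cgn, Evpl and Itga6. The pattern per uterus appears in the heat map.

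**Figure D1:**
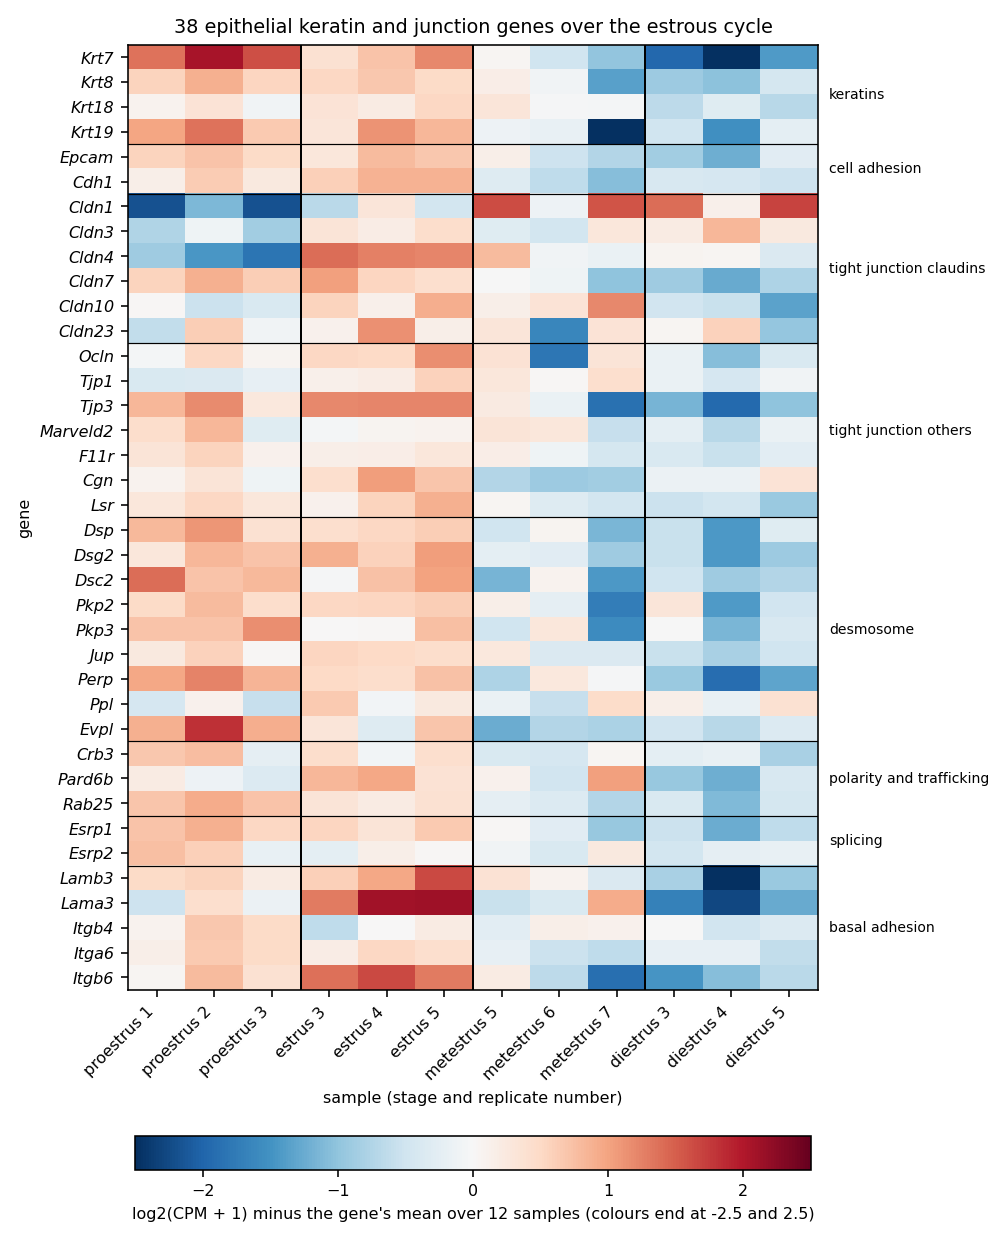
Heat map of the 38 genes (rows, grouped by role) in the 12 uteri (columns, grouped by stage); colour gives log2(CPM + 1) minus the gene's mean over the 12 samples, red above and blue below. Most rows are red in proestrus and estrus and blue in diestrus, while Cldn1 and Cldn4 are blue in proestrus.

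Between proestrus and estrus few members were called, and no larger a share than among all genes. Cldn4, Cldn3, Tjp1 and Lama3 were higher in estrus, 4 of 38 where 17.1% of all genes were called and 9.68% were called higher, and no member was called lower. The median log2 fold change of the 38 was 0.11, against 0.02 over all genes tested, and the members ranged from -1.10 for Evpl to 3.15 for Cldn4. Cldn4 and Lama3 kept their calls whichever library was left out, while Cldn3 and Tjp1 each lost theirs without at least 1 of proestrus 1, proestrus 2, proestrus 3, estrus 3, estrus 4 and estrus 5 (highest adjusted p = 0.115). The count was 2 without proestrus 1, 7 without metestrus 5 and 7 without metestrus 7. Over all genes these fits called 1225, 2391 and 2412 in place of 2065.

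From estrus to metestrus 13 members fell and none rose: Krt7, Epcam, Cdh1, Cldn7, Tjp3, Cgn, Lsr, Dsg2, Rab25, Esrp1, Lama3, Itga6 and Itgb6. Over all genes tested, 4.73% fell in that comparison and 7.55% were called in either direction. The median was -0.86 over the 38 and 0.01 over all genes, with 34 members below 0. Cdh1, Cgn, Dsg2 and Itgb6 kept their calls in every fit without 1 library, though with counts rebuilt from TPM Dsg2 stood at -0.59 and was not called (adjusted p = 0.377), while the other 9 each lost theirs without at least 1 of proestrus 1, proestrus 2, proestrus 3, estrus 3, estrus 4, estrus 5, metestrus 6, metestrus 7, diestrus 3 and diestrus 5 (highest adjusted p = 0.165). The count was 4 without estrus 4, 4 without estrus 5, 6 without metestrus 6 and 7 without metestrus 7. Over all genes these fits called 431, 339, 457 and 936 in place of 910.

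From metestrus to diestrus edgeR called no member, where 0.224% of all genes were called, and the median log2 fold change was -0.39 against -0.02 over all genes. At an unadjusted p under 0.05 there were 13 members, where 11.3% of all genes lay. DESeq2 called Krt7, Krt18, Cldn10, Perp and Lama3, and edgeR without the filter on low counts called the same genes except Krt18, all lower in diestrus. Over all genes these fits called 148 and 256, in place of 27. Single calls appeared without metestrus 5 (Perp), without metestrus 6 (Cldn10) and without metestrus 7 (Krt7), where 12, 173 and 83 of all genes were called. The members named here were taken after their values were seen.

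Between diestrus and proestrus, which close the cycle, 25 members were called where 8.51% of all genes were. In proestrus 22 were higher, against 4.61% of all genes, and Cldn1, Cldn3 and Cldn4 were lower, against 3.9%. The median was 0.99 over the 38 and close to 0 over all genes, with 33 members above 0. Every proestrus uterus lay above every diestrus uterus for 28 of the 38, where 15.8% of all genes showed that separation. Calls that held in every fit without 1 library were those of Krt7, Krt8, Epcam, Cldn1, Cldn7, Tjp3, Lsr, Dsp, Dsg2, Jup, Perp, Rab25 and Esrp1. The other 12 each lost theirs without at least 1 of proestrus 1, proestrus 2, proestrus 3, estrus 3, estrus 4, estrus 5, diestrus 3, diestrus 4 and diestrus 5 (highest adjusted p = 0.168). The count was 15 without proestrus 2 and 15 without diestrus 4. Over all genes these fits called 519 and 611 in place of 1026.

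Across the gaps in the cycle, diestrus against estrus gave 27 members, all lower in diestrus, where 13% of all genes were lower and 22.8% were called. The median was -1.22 over the 38 and close to 0 over all genes, and 36 of the 38 lay below 0. Every diestrus uterus lay below every estrus uterus for 32 members, where 22.4% of all genes did so. The 11 members not called were Cldn1, Cldn3, Cldn23, Marveld2, Pkp2, Pkp3, Ppl, Evpl, Crb3, Esrp2 and Itgb4. Of the 27 calls, 19 held in every fit without 1 library, and those of Krt19, Ocln, Tjp1, F11r, Cgn, Dsc2, Pard6b and Itga6 were each lost without at least 1 of proestrus 1, proestrus 2, proestrus 3, estrus 3, estrus 4, estrus 5, metestrus 6, metestrus 7, diestrus 3, diestrus 4 and diestrus 5 (highest adjusted p = 0.211). Metestrus against proestrus gave 13 calls where 4.31% of all genes were called: Cldn1 and Cldn4 were higher in metestrus (2.49% of all genes) and 11 members were lower (1.82%), namely Krt7, Cdh1, Cldn7, Dsp, Dsg2, Dsc2, Perp, Evpl, Rab25, Esrp1 and Itga6. Krt7 and Rab25 kept that call in every fit without 1 library, and the others each lost theirs without at least 1 of proestrus 1, proestrus 2, proestrus 3, estrus 3, estrus 4, estrus 5, metestrus 5, metestrus 7, diestrus 3 and diestrus 5 (highest adjusted p = 0.148). The count was 7 without proestrus 1, 2 without proestrus 2, 4 without proestrus 3 and 5 without metestrus 7. Over all genes these fits called 188, 78, 108 and 211 in place of 519. The comparisons share samples, so their lists are not independent of each other.

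**Figure D2:**
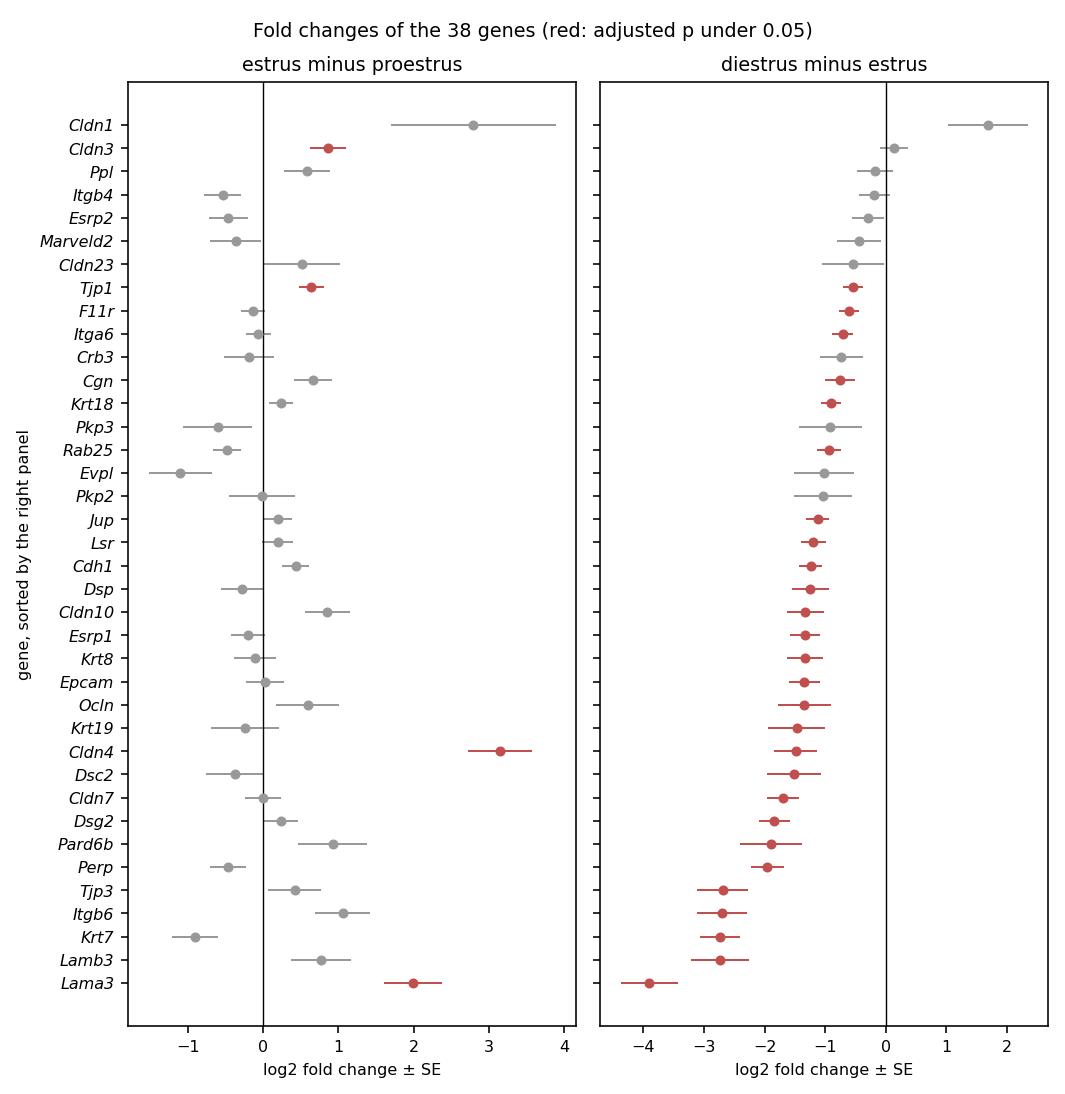
Log2 fold change ± SE of each of the 38 genes, in estrus relative to proestrus (left) and in diestrus relative to estrus (right), both sorted by the right panel; red marks an adjusted p under 0.05. On the left 4 genes are red, all above 0, and on the right 27 are red, all below 0, from Tjp1 at -0.54 to Lama3 at -3.90.

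Promoter windows, from 250 bases before to 50 bases after a RefSeq start site on GRCm38.p6, were at hand for 23 of the 38 genes. They are shown for Krt7, the keratin with the widest range over the cycle, for Cldn4, which ran against most members in proestrus, and for Rab25, whose window held a match to a grainyhead-like motif. Each reads 5′ to 3′ on the gene's own strand, and capitals mark the motif matches.
Krt7, chr15:101412153-101412452, plus strand: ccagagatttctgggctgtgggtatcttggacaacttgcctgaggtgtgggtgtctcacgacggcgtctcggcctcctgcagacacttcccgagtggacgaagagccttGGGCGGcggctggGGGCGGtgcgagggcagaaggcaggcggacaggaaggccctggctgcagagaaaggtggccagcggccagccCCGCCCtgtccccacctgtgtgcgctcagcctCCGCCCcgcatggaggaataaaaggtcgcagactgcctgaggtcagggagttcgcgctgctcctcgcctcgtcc
Cldn4, chr5:134946885-134947184, minus strand: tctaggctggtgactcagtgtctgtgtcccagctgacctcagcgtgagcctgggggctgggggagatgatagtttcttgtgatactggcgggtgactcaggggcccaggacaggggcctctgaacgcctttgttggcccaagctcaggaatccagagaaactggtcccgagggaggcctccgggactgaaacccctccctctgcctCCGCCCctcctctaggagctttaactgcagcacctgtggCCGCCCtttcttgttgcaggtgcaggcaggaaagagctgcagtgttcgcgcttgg
Rab25, chr3:88548230-88548529, minus strand: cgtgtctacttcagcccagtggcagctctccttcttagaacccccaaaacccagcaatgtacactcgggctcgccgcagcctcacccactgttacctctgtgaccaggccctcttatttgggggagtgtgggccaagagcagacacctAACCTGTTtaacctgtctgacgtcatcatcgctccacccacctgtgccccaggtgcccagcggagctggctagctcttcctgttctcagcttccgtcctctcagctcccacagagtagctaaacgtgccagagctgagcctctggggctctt
In Krt7 and Cldn4 the capitals are the SP/KLF box GGGCGG or its reverse complement, first bases at -141, -128, -56 and -24 from the start site in Krt7 and at -44 and -5 in Cldn4. In Rab25 they are AACNGGTT read on the other strand, first base at -102. Both strands of every window were searched. GGGCGG occurred in the windows of 17 of the 23 members (73.9%), against 38.2% of 27025 genes with a window, and the members' windows also had a median GC content of 60.7% against 52.7%. AACNGGTT, which contains the stricter AACCGGTT, occurred in the windows of Cgn and Rab25 and in those of 2.35% of all genes. AACCGGTT and the consensus palindrome of the estrogen response element matched in no member window and in those of 0.174% and 0.074% of all genes. Windows were not at hand for Krt19, Cdh1, Cldn23, Dsg2, Dsc2, Pkp2, Pkp3, Perp, Ppl, Evpl, Esrp1, Esrp2, Lama3, Itgb4 and Itga6.

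The 4 simple keratins were all lower in diestrus than in proestrus and in estrus, and Krt7 had the largest range. Krt7, a type II keratin of simple ducts and glands (ENSMUSG00000023039, chr15:101411043-101430313, plus strand), stood at 401, 659 and 484 CPM in proestrus, 205, 256 and 362 in estrus, 162, 110.3 and 78.7 in metestrus, and 39.6, 26.5 and 58.4 in diestrus. Its proestrus samples lay above all others, and its diestrus samples lay below all others. The mean was 515 ± 131 CPM (SD, n = 3) in proestrus and 41.5 ± 16.1 in diestrus, a 12.4-fold difference, and the test gave 3.64 ± 0.34 (adjusted p = 5.34e-05) for proestrus over diestrus. From estrus to diestrus Krt7 fell by 2.73 ± 0.33 (adjusted p = 0.000112), and from proestrus to metestrus it fell by 2.13 ± 0.31 (adjusted p = 0.00508). The step from proestrus to estrus was -0.91 ± 0.30, with an adjusted p of 0.0528.

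Krt8, the type II partner of Krt18 in simple epithelia (ENSMUSG00000049382, chr15:101996698-102004482, minus strand), stood at 348, 444 and 345 CPM in proestrus, 339, 382 and 332 in estrus, 267, 224 and 92.4 in metestrus, and 126, 116 and 175 in diestrus. Proestrus and estrus overlapped, diestrus lay below both, and metestrus 7 was lower than any other sample. Krt8 fell by 1.34 ± 0.29 (adjusted p = 0.0053) from estrus to diestrus. Krt18, the type I partner (ENSMUSG00000023043, chr15:102028180-102032027, plus strand), stood at 169.9, 202 and 149.6 CPM in proestrus, 203, 185 and 228 in estrus, 197, 157 and 155 in metestrus, and 100.5, 130.0 and 98.3 in diestrus. Its metestrus samples still overlapped proestrus and estrus, and all 3 diestrus samples lay below them. It fell by 0.91 ± 0.16 (adjusted p = 0.00174) from estrus to diestrus and was 0.66 ± 0.16 higher in proestrus than in diestrus (adjusted p = 0.0218), a call lost without proestrus 1, proestrus 2, diestrus 3 or diestrus 5 (highest adjusted p = 0.111). Krt19, a small type I keratin of simple epithelia (ENSMUSG00000020911, chr11:100140810-100148665, minus strand), stood at 224, 291 and 179 CPM in proestrus, 140.0, 246 and 201 in estrus, 103, 99.6 and 17.2 in metestrus, and 79.7, 38.3 and 95 in diestrus. Metestrus 7 was again the lowest of the 12 samples. Krt19 was 1.71 ± 0.47 (adjusted p = 0.0382) higher in proestrus than in diestrus. That call was lost in 8 of the 12 fits without 1 library (highest adjusted p = 0.149). It was also lost with library totals (adjusted p = 0.0518), with DESeq2 (adjusted p = 0.0533) and with counts rebuilt from TPM (adjusted p = 0.0954). Krt19 fell by 1.47 ± 0.47 (adjusted p = 0.0378) from estrus to diestrus, a call lost without proestrus 1, estrus 4, estrus 5, diestrus 3, diestrus 4 or diestrus 5 (highest adjusted p = 0.141), and also with library totals (adjusted p = 0.0539), with DESeq2 (adjusted p = 0.0688) and with counts rebuilt from TPM (adjusted p = 0.0783). Of the annotated sequence of Krt8, 36.0% occurs in another gene, most of it in the pseudogene Krt8-ps, and 11.4% of that of Krt18 does, mainly in Gm5200. Both partners were listed at 0 counts in all 12 libraries, and how the counting split such reads is uncertain.

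Epcam and Cdh1, the adhesion molecules most used to mark epithelium, fell between estrus and metestrus. Epcam, a membrane glycoprotein of epithelial cells (ENSMUSG00000045394, chr17:87635979-87651129, plus strand), stood at 380.0, 422 and 359 CPM in proestrus, 314, 450.3 and 415 in estrus, 288, 179.8 and 155 in metestrus, and 141, 110.4 and 214 in diestrus. Proestrus and estrus overlapped and every metestrus and diestrus sample lay below them. Epcam fell by 0.92 ± 0.25 (adjusted p = 0.0428) from estrus to metestrus, a call lost in 8 of the 12 fits without 1 library, all but those without estrus 3, metestrus 5, diestrus 4 and diestrus 5 (highest adjusted p = 0.156), and also with library totals (adjusted p = 0.0648), with counts rebuilt from TPM (adjusted p = 0.088) and with only the 6 samples of these stages (adjusted p = 0.102), and by 1.34 ± 0.26 (adjusted p = 0.00236) from estrus to diestrus. Cdh1, E-cadherin of the adherens junction (ENSMUSG00000000303, chr8:106603351-106670246, plus strand), stood at 83.8, 119 and 89.7 CPM in proestrus, 115, 139 and 140.1 in estrus, 60.8, 48.3 and 35.5 in metestrus, and 57.4, 56.4 and 52.8 in diestrus. Metestrus and diestrus overlapped at the low end. Cdh1 fell by 1.44 ± 0.19 (adjusted p = 0.00076) from estrus to metestrus, and the difference between diestrus and metestrus, 0.20 ± 0.19, was not called (adjusted p = 0.752).

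**Figure D3:**
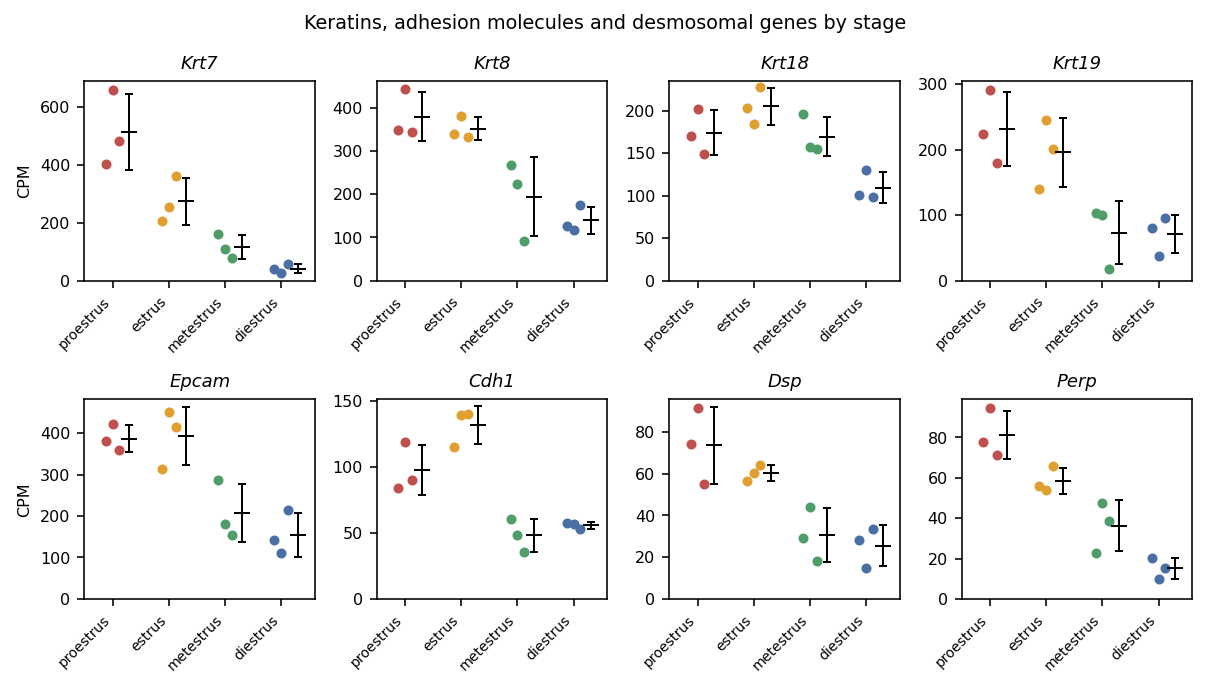
CPM of 8 keratin, adhesion and desmosome genes by stage; points are single uteri and bars the mean ± SD of 3. Diestrus is the lowest or near lowest stage in every panel, and metestrus 7 is the lowest metestrus sample for Krt7, Krt8, Krt18, Krt19, Epcam, Cdh1 and Dsp.

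The claudins, the transmembrane proteins of tight junction strands, split into different courses. Cldn7 (ENSMUSG00000018569, chr11:69964779-69967885, plus strand), which also lies along the lateral membrane, followed the keratins with 41.9, 53 and 43.8 CPM in proestrus, 59, 41.5 and 38.2 in estrus, 28.3, 26.3 and 13.6 in metestrus, and 14.8, 11.3 and 16.3 in diestrus. Its diestrus samples lay below all proestrus and estrus samples, and it fell by 1.70 ± 0.27 (adjusted p = 0.000707) from estrus to diestrus. Cldn10 (ENSMUSG00000022132, chr14:118787908-118875489, plus strand), a claudin that forms ion-selective pores, stood at 58.3, 39.1 and 43.3 CPM in proestrus, 84.1, 61.9 and 107 in estrus, 63.3, 72.1 and 131 in metestrus, and 40.6, 38.3 and 21.9 in diestrus. Its mean was highest in metestrus, with estrus next, and it fell by 1.33 ± 0.31 (adjusted p = 0.00727) from estrus to diestrus.

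Cldn4 (ENSMUSG00000047501, chr5:134945119-134946934, minus strand), a claudin that limits ion flow, was lowest in proestrus. It stood at 2.83, 1.61 and 1.01 CPM in proestrus, 17.8, 15.9 and 15.5 in estrus, 11.3, 5.64 and 5.33 in metestrus, and 6.43, 6.38 and 4.5 in diestrus, which in proestrus rested on 5, 3 and 2 counts. Every estrus sample lay above every other sample, and every proestrus sample lay below every other. Cldn4 was 8.86-fold higher in estrus than in proestrus, 3.15 ± 0.43 (adjusted p = 0.000586), and fell by 1.49 ± 0.36 (adjusted p = 0.00914) from estrus to diestrus. Its diestrus level still lay above proestrus: proestrus minus diestrus was -1.66 ± 0.47 (adjusted p = 0.0443), a call lost in 8 of the 12 fits without 1 library, all but those without proestrus 1, metestrus 5, metestrus 6 and metestrus 7 (highest adjusted p = 0.168), and also without the filter on low counts (adjusted p = 0.0505), with DESeq2 (adjusted p = 0.0705) and with counts rebuilt from TPM (adjusted p = 0.065).

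Cldn3 (ENSMUSG00000070473, chr5:134986214-134987472, plus strand), a sealing claudin, stood at 60.6, 95.8 and 55.9 CPM in proestrus, 128, 118 and 140.1 in estrus, 83.9, 74.6 and 125 in metestrus, and 119, 184 and 122 in diestrus. All proestrus samples lay below all estrus and diestrus samples. It was 0.86 ± 0.24 (adjusted p = 0.0269) higher in estrus than in proestrus, a call lost without proestrus 1, proestrus 3, estrus 3, estrus 4 or estrus 5 (highest adjusted p = 0.115). Proestrus minus diestrus was -0.9996 ± 0.24 (adjusted p = 0.0199), a call lost without proestrus 1, proestrus 3 or diestrus 4 (highest adjusted p = 0.0957), and also with counts rebuilt from TPM (adjusted p = 0.0502). Diestrus and estrus differed by 0.14 ± 0.24, which was not called (adjusted p = 0.724), and those stages overlapped. Cldn1 (ENSMUSG00000022512, chr16:26356642-26371841, minus strand), a barrier-forming claudin, was near absent in proestrus, with counts of 0, 2 and 0. It stood at 0, 1.07 and 0 CPM in proestrus, 1.84, 4.54 and 2.27 in estrus, 12.9, 3.13 and 12.4 in metestrus, and 10.9, 3.93 and 13.5 in diestrus. Metestrus and diestrus overlapped each other and lay above proestrus. With proestrus set to the floor of 3 counts per library, the diestrus mean of Cldn1 was 5.87-fold that floor and the metestrus mean 5.9-fold. These folds leave out the spread of the diestrus and metestrus samples. Cldn1 was called higher than in proestrus in diestrus (edgeR adjusted p = 0.00862) and in metestrus (adjusted p = 0.0193). The second call was lost without proestrus 1, proestrus 2, proestrus 3 or metestrus 7 (highest adjusted p = 0.0866). Cldn23 (3.13 to 27.3 CPM) was not called in any comparison, with its lowest sample in metestrus 6.

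**Figure D4:**
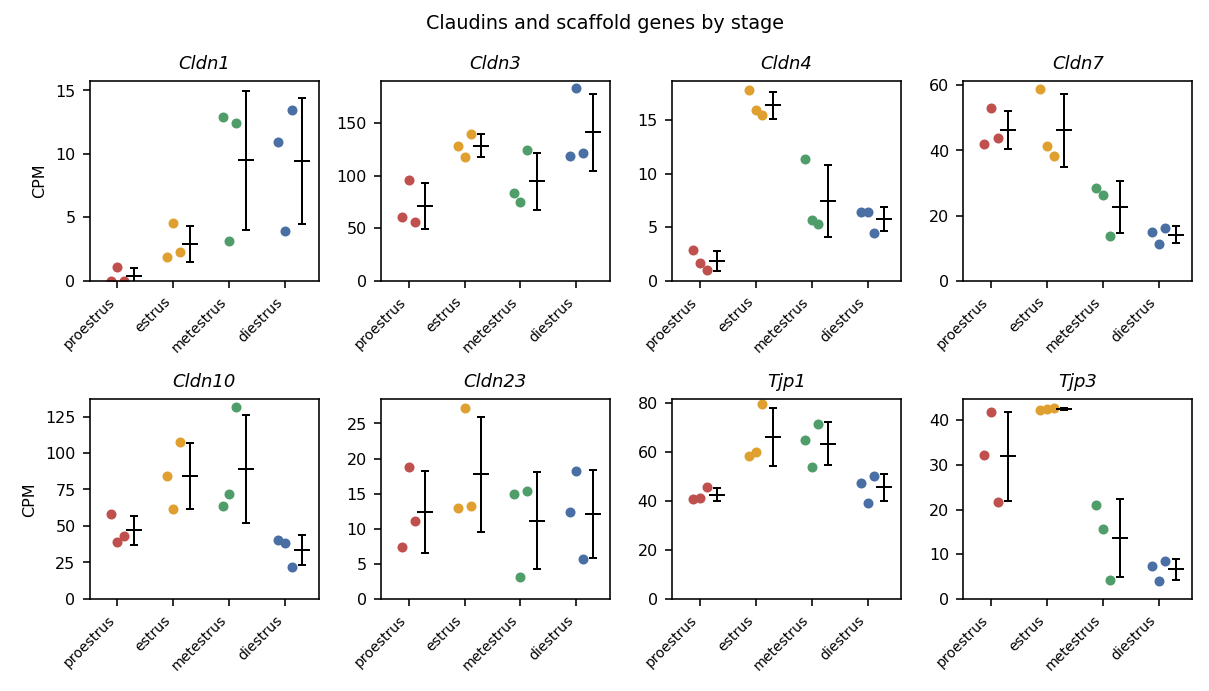
CPM of the 6 claudins and of the scaffold genes Tjp1 and Tjp3 by stage; points are single uteri and bars the mean ± SD of 3. Cldn1 and Cldn4 are at their lowest in proestrus, Cldn3 overlaps between estrus and diestrus, and Cldn7 and Tjp3 are lowest in diestrus.

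Among the other tight junction genes the scaffold gene Tjp3 changed most. Tjp3, of the zonula occludens family (ENSMUSG00000034917, chr10:81273207-81291581, minus strand), stood at 32.3, 41.7 and 21.7 CPM in proestrus, 42.4, 42.6 and 42.8 in estrus, 21.1, 15.7 and 4.14 in metestrus, and 7.42, 3.93 and 8.43 in diestrus. The estrus samples were nearly equal, and diestrus lay below estrus and proestrus without overlap. Tjp3 fell by 2.69 ± 0.42 (adjusted p = 0.000697) from estrus to diestrus, a 6.46-fold fall. Tjp1, the family's widely expressed member, which is also made outside the epithelium, stood at 40.8, 41.2 and 45.8 CPM in proestrus, 58.3, 60.2 and 79.6 in estrus, 64.9, 53.9 and 71.6 in metestrus, and 47.5, 39.3 and 50.01 in diestrus. Its proestrus samples lay below all estrus and metestrus samples. It was 0.64 ± 0.17 (adjusted p = 0.0192) higher in estrus than in proestrus, a call lost without proestrus 1, proestrus 2 or estrus 5 (highest adjusted p = 0.107), and fell by 0.54 ± 0.16 (adjusted p = 0.0305) from estrus to diestrus, a call lost without estrus 4, estrus 5, diestrus 3 or diestrus 4 (highest adjusted p = 0.163), and also with library totals (adjusted p = 0.0672), without the filter on low counts (adjusted p = 0.0756), with DESeq2 (adjusted p = 0.053) and with counts rebuilt from TPM (adjusted p = 0.24).

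Lsr, the angulin that marks tricellular contacts, stood at 68, 80.3 and 67.5 CPM in proestrus, 59.6, 82.3 and 103 in estrus, 57.7, 43.9 and 40.3 in metestrus, and 38.1, 40.2 and 28.7 in diestrus. Diestrus lay below proestrus and estrus, and Lsr fell by 1.20 ± 0.21 (adjusted p = 0.00145) from estrus to diestrus. F11r, the junctional adhesion molecule A, stood at 98.5, 116 and 85.1 CPM in proestrus, 87.2, 88.6 and 96 in estrus, 88, 73.3 and 58 in metestrus, and 60.4, 53 and 65.7 in diestrus. It was 0.74 ± 0.17 (adjusted p = 0.0137) higher in proestrus than in diestrus, a call lost without proestrus 2 or diestrus 4 (highest adjusted p = 0.0771). Cgn, cingulin, which ties tight junctions to the cytoskeleton, stood at 13.6, 16.1 and 11.6 CPM in proestrus, 17.2, 27.3 and 20.9 in estrus, 7.21, 6.27 and 6.51 in metestrus, and 11.4, 11.3 and 16.3 in diestrus. Its 3 metestrus samples lay below all 9 others, and it fell by 1.70 ± 0.28 (adjusted p = 0.00294) from estrus to metestrus. Sequence shared with another annotated gene amounts to 36.3% for Lsr (Gm4673) and 21.6% for Cgn (BC021767, 0 to 3 counts per library). The share is of all annotated sequence and reads come from near the transcript end, so the part of their counts affected is uncertain.

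Ocln, occludin, stood at 13, 19.8 and 14.1 CPM in proestrus, 19.7, 19.3 and 31.4 in estrus, 17.5, 3.13 and 17.2 in metestrus, and 11.9, 5.89 and 10.1 in diestrus, with metestrus 6 far below the other metestrus samples. It was not called in the F test (adjusted p = 0.133), and it fell by 1.35 ± 0.44 (adjusted p = 0.0421) from estrus to diestrus, a call lost in 9 of the 12 fits without 1 library, all but those without metestrus 5, metestrus 6 and metestrus 7 (highest adjusted p = 0.175), and also with library totals (adjusted p = 0.054). Marveld2, tricellulin (5.89 to 18.7 CPM), was called in no comparison.

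Desmosome genes were lower in diestrus than in proestrus for 6 of 9 members: Dsp, Dsg2, Dsc2, Jup, Perp and Evpl, where 4.61% of all genes were called higher in proestrus. Perp, a tetraspan membrane protein of desmosomes (ENSMUSG00000019851, chr10:18845020-18857073, plus strand), had the largest of these differences between proestrus and diestrus, with 77.6, 94.7 and 71.5 CPM in proestrus, 55.9, 53.9 and 66 in estrus, 22.7, 47.6 and 38.5 in metestrus, and 20.3, 9.81 and 15.2 in diestrus. Every proestrus sample lay above every other sample, and every diestrus sample below every other. It was 2.42 ± 0.27 (adjusted p = 0.000197) higher in proestrus than in diestrus, a 5.37-fold difference. Dsg2, the main desmoglein of simple epithelia, stood at 34.5, 50.8 and 46.9 CPM in proestrus, 53.4, 42.6 and 59.1 in estrus, 23.7, 23.2 and 14.8 in metestrus, and 18.8, 9.81 and 14.6 in diestrus. It fell by 1.84 ± 0.26 (adjusted p = 0.000307) from estrus to diestrus, with no overlap between the stages.

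Dsp, desmoplakin, the linker to keratin filaments (ENSMUSG00000054889, chr13:38151294-38198577, plus strand), stood at 74.2, 91.5 and 54.9 CPM in proestrus, 56.5, 60.2 and 64.1 in estrus, 29.3, 43.9 and 18.4 in metestrus, and 28.2, 14.7 and 33.7 in diestrus. It was 1.53 ± 0.30 (adjusted p = 0.00698) higher in proestrus than in diestrus. Jup, plakoglobin of desmosomes and adherens junctions (ENSMUSG00000001552, chr11:100368958-100397763, minus strand), stood at 97.4, 124 and 84.1 CPM in proestrus, 120.4, 117 and 112 in estrus, 98.3, 63.9 and 63.9 in metestrus, and 55.4, 46.6 and 57.9 in diestrus. Jup fell by 1.13 ± 0.19 (adjusted p = 0.00106) from estrus to diestrus, and its diestrus samples lay below all others. Dsc2, a desmocollin, stood at 23.2, 13.9 and 15.1 CPM in proestrus, 7.98, 14.2 and 17.3 in estrus, 3.09, 8.77 and 2.37 in metestrus, and 5.44, 3.93 and 4.5 in diestrus. It was 1.89 ± 0.44 (adjusted p = 0.0153) higher in proestrus than in diestrus, a call lost without proestrus 1, diestrus 4 or diestrus 5 (highest adjusted p = 0.0671).

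Evpl, envoplakin, a plakin better known from stratified epithelia, stood at 7.93, 16.1 and 8.06 CPM in proestrus, 4.91, 2.84 and 6.82 in estrus, 1.03, 1.88 and 1.78 in metestrus, and 2.47, 1.96 and 2.81 in diestrus. All 3 metestrus libraries were at or under 3 counts. Evpl fell by 2.74 ± 0.51 (adjusted p = 0.0122) from proestrus to metestrus, an estimate that rests on those few counts. That call was lost without proestrus 2 (adjusted p = 0.0664), and also with only the 6 samples of these stages (adjusted p = 0.0612). Evpl was 2.12 ± 0.46 (adjusted p = 0.0112) higher in proestrus than in diestrus, a call lost without proestrus 2 or diestrus 4 (highest adjusted p = 0.0787). Its partner Ppl, periplakin, ranged from 12.5 to 30.7 CPM and was called in no comparison. The plakophilins Pkp2 (1.78 to 15 CPM) and Pkp3 (1.18 to 13.6 CPM) were not called in any either, with diestrus minus estrus at -1.03 ± 0.48 and -0.92 ± 0.52. Their proestrus minus diestrus values were 1.05 ± 0.48 (adjusted p = 0.214) and 1.52 ± 0.50 (adjusted p = 0.0806).

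Of the polarity and trafficking genes, Rab25, a small GTPase of apical recycling endosomes (ENSMUSG00000008601, chr3:88542029-88548300, minus strand), stood at 70.2, 82.9 and 71 CPM in proestrus, 54, 49.97 and 56.9 in estrus, 37.1, 33.8 and 25.5 in metestrus, and 33.2, 19.6 and 31.5 in diestrus. The proestrus samples lay above all others, the estrus samples came next, and metestrus and diestrus overlapped. Rab25 was 1.41 ± 0.19 (adjusted p = 0.000737) higher in proestrus than in diestrus and fell by 1.21 ± 0.19 (adjusted p = 0.00745) from proestrus to metestrus. Pard6b, of the apical Par complex, stood at 5.66, 4.28 and 3.53 CPM in proestrus, 9.21, 10.2 and 6.37 in estrus, 5.15, 3.13 and 10.7 in metestrus, and 1.98, 1.47 and 3.37 in diestrus. It was not called in the F test (adjusted p = 0.0588) and fell by 1.90 ± 0.51 (adjusted p = 0.0159) from estrus to diestrus, a call lost without estrus 4, diestrus 3 or diestrus 4 (highest adjusted p = 0.0709). Crb3, of the apical Crumbs complex (5.06 to 17.1 CPM), was called in no comparison.

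Esrp1 and Esrp2 are RNA-binding proteins that set epithelial splicing choices, and Esrp1 alone passed the test. Esrp1 (ENSMUSG00000040728, chr4:11331933-11386783, minus strand) stood at 48.7, 55.1 and 42.3 CPM in proestrus, 43, 36.9 and 46.4 in estrus, 29.9, 23.8 and 14.8 in metestrus, and 19.8, 11.8 and 18.5 in diestrus. It fell by 1.34 ± 0.25 (adjusted p = 0.00213) from estrus to diestrus, and all diestrus samples lay below all estrus and proestrus samples. Esrp2 (15.3 to 36.8 CPM) was called in no comparison, with diestrus minus estrus at -0.29 ± 0.27. For Esrp2 proestrus minus diestrus was 0.75 ± 0.26 (adjusted p = 0.0951), with every proestrus sample above every diestrus sample. The difference between the genes was not tested, and 6.38% of the sequence of Esrp2 is shared with other genes, mainly Nfatc3.

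Of the 5 basal adhesion members Lama3 was called higher in estrus than in each other stage, Lamb3, Itgb6 and Itga6 were called lower in diestrus than in estrus, and Itgb4 was called in no comparison. Lama3, a laminin alpha chain of epithelial basement membranes, stood at 9.06, 18.2 and 12.1 CPM in proestrus, 34.4, 60.8 and 61.4 in estrus, 8.75, 10.03 and 26.6 in metestrus, and 3.46, 1.96 and 5.06 in diestrus. Estrus lay above all other stages, and diestrus lay below all. It was 1.99 ± 0.39 (adjusted p = 0.00451) higher in estrus than in proestrus, and it fell by 1.80 ± 0.39 (adjusted p = 0.0148) from estrus to metestrus, a call lost without estrus 4, estrus 5 or metestrus 6 (highest adjusted p = 0.0685), and also with counts rebuilt from TPM (adjusted p = 0.051) and with only the 6 samples of these stages (adjusted p = 0.059). It fell by 3.90 ± 0.47 (adjusted p = 0.00011) from estrus to diestrus, a 15-fold fall and the largest fall of any member in that comparison. Lamb3, the beta chain that joins it (ENSMUSG00000026639, chr1:193207699-193343878, plus strand), stood at 13.6, 14.4 and 11.1 CPM in proestrus, 14.7, 19.3 and 31.8 in estrus, 12.4, 10.03 and 7.1 in metestrus, and 4.95, 0.491 and 4.5 in diestrus, with 1 count in diestrus 4. It fell by 2.74 ± 0.48 (adjusted p = 0.0014) from estrus to diestrus. With counts rebuilt from the deposited TPM values, which divide by transcript length, the log2 fold change was -1.03 and was not called (adjusted p = 0.289).

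Itgb6, the beta 6 integrin subunit, which pairs with the alpha V subunit in epithelia (ENSMUSG00000026971, chr2:60598292-60722643, minus strand), stood at 11.9, 20.3 and 15.1 CPM in proestrus, 31.3, 38 and 29.6 in estrus, 13.4, 6.89 and 2.37 in metestrus, and 3.46, 4.91 and 6.74 in diestrus. Every estrus sample lay above every other sample. Itgb6 fell by 2.08 ± 0.40 (adjusted p = 0.00782) from estrus to metestrus and by 2.71 ± 0.42 (adjusted p = 0.000616) from estrus to diestrus. Itga6 and Itgb4 encode the subunits of the hemidesmosome integrin. Itga6 (ENSMUSG00000027111, chr2:71745616-71858416, plus strand) stood at 166, 236 and 209 CPM in proestrus, 170.1, 214 and 199.7 in estrus, 129, 102 and 96.5 in metestrus, and 129, 129.6 and 97.8 in diestrus. Proestrus and estrus lay above metestrus and diestrus, and it fell by 0.71 ± 0.17 (adjusted p = 0.00921) from estrus to diestrus, a call lost without estrus 4 (adjusted p = 0.0529), and also with counts rebuilt from TPM (adjusted p = 0.199). Itgb4 (14.1 to 36.4 CPM) was called in no comparison, with diestrus minus estrus at -0.19 ± 0.26. For Itgb4 proestrus minus diestrus was 0.73 ± 0.25 (adjusted p = 0.0941), with every proestrus sample above every diestrus sample.

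**Figure D5:**
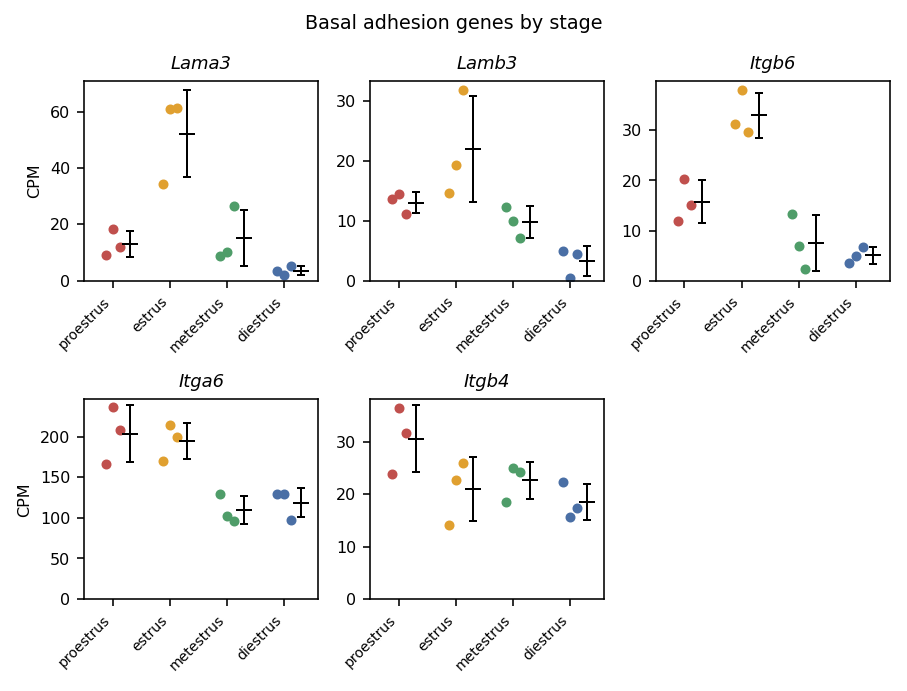
CPM of the 5 basal adhesion members by stage; points are single uteri and bars the mean ± SD of 3. Lama3 and Itgb6 stand highest in estrus and Itga6 is high in proestrus and estrus. The stages of Itgb4 overlap, except that every proestrus sample lies above every diestrus sample.

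Some members did not keep a fixed proportion to Epcam, though no ratio was tested. As a description, each gene was divided by Epcam within the same library, which removes any factor that scales all epithelial genes of a library alike, and the ratio is read only between samples. Krt8 over Epcam lay at 0.917 to 1.05 in proestrus, 0.801 to 1.08 in estrus, 0.598 to 1.25 in metestrus and 0.818 to 1.05 in diestrus, with wide overlap. Krt7 over Epcam went from 1.06 to 1.56 in proestrus to 0.569 to 0.871 in estrus, 0.51 to 0.613 in metestrus and 0.24 to 0.281 in diestrus, and the diestrus range lay below all others. Cldn3 over Epcam took the opposite course, 0.156 to 0.227 in proestrus, 0.261 to 0.409 in estrus, 0.292 to 0.808 in metestrus and 0.571 to 1.66 in diestrus. Lama3 over Epcam was 0.0238 to 0.0431 in proestrus, 0.11 to 0.148 in estrus, 0.0304 to 0.172 in metestrus and 0.0178 to 0.0246 in diestrus, with metestrus 7 above every estrus sample. Cldn4 over Epcam was 0.00281 to 0.00745 in proestrus, 0.0353 to 0.0568 in estrus, 0.0314 to 0.0394 in metestrus and 0.0211 to 0.0578 in diestrus. The proestrus values rest on 5, 3 and 2 counts of Cldn4. Perp over Epcam was 0.199 to 0.224 in proestrus, 0.12 to 0.178 in estrus, 0.0787 to 0.265 in metestrus and 0.0711 to 0.144 in diestrus. Only some of the 37 ratios are given, and others overlapped across all 4 stages. Esrp1 over Epcam, for example, lay at 0.118 to 0.131 in proestrus, 0.082 to 0.137 in estrus, 0.0958 to 0.132 in metestrus and 0.0868 to 0.14 in diestrus.

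The metestrus uteri differed among themselves. For 26 of the 38 its mean lay between a higher estrus and a lower diestrus mean. The lowest of the 3 metestrus values came from metestrus 7 for 22 genes, from metestrus 6 for 11 and from metestrus 5 for 5. Without metestrus 7, 7 members were called lower in metestrus than in estrus in place of 13, while over all genes the calls between these stages went from 910 to 936. Between metestrus and proestrus 5 members were called without it in place of 13, and over all genes 211 in place of 519.

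Genes of the same structures outside the list are given by count. In estrus against proestrus 9.68% of all genes were higher, and in diestrus against estrus 13% were lower and 9.72% higher. Of 15 other basal adhesion genes, 14 were tested and 7 were higher in estrus than in proestrus. Itga2, a collagen-binding integrin subunit, stood at 14.7, 27.8 and 19.6 CPM in proestrus, 44.8, 83.5 and 75.5 in estrus, 12.9, 8.77 and 5.92 in metestrus, and 6.93, 7.36 and 8.99 in diestrus. Itga2 was 1.71 ± 0.28 (adjusted p = 0.00187) higher in estrus than in proestrus and fell by 3.13 ± 0.32 (adjusted p = 3.57e-05) from estrus to diestrus. Lama5, the laminin alpha chain found under most epithelia, went from 49.7, 52.8 and 52.8 CPM in estrus to 22.3, 16.2 and 21.4 in diestrus. In diestrus 7 of the list were lower than in estrus and none was higher.

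Of 36 other tight junction and polarity genes, 27 were tested, and against estrus 6 were lower in diestrus and 2 were higher, where 22.8% of all genes were called. Cxadr, an adhesion molecule of tight junctions, stood at 33.4, 30.5 and 32.7 CPM in proestrus, 50.4, 43.7 and 41.8 in estrus, 24.2, 15 and 18.4 in metestrus, and 18.3, 7.36 and 11.2 in diestrus, and fell by 1.87 ± 0.26 (adjusted p = 0.00034) from estrus to diestrus. Jam2, a junctional adhesion molecule also made by endothelium, ran the other way with 13.6, 11.2 and 12.6 CPM in proestrus, 18.4, 23.8 and 15.5 in estrus, 21.6, 20.1 and 36.1 in metestrus, and 53.9, 139.9 and 76.4 in diestrus. It was 2.23 ± 0.33 (adjusted p = 0.00045) higher in diestrus than in estrus. The scaffold gene Mpdz was also higher in diestrus than in estrus, by 1.06 ± 0.25 (adjusted p = 0.00777). Of 18 other desmosome and adherens junction genes, 12 were tested, and 6 were lower in diestrus than in estrus. Afdn, afadin, which links nectins to actin, stood at 88.3, 101 and 90.7 CPM in proestrus, 107, 90.3 and 96.9 in estrus, 83.9, 80.8 and 73.4 in metestrus, and 61.9, 64.8 and 66.3 in diestrus, and fell by 0.61 ± 0.12 (adjusted p = 0.00336) from estrus to diestrus. The desmosomal cadherins and plakophilin of stratified epithelia, Dsg1a, Dsg3, Dsg4, Dsc1, Dsc3 and Pkp1, were at 3 counts or fewer in every library.

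Of 13 other keratins, 3 were tested. Krt23, a type I keratin, stood at 2.83, 0 and 1.01 CPM in proestrus, 7.98, 8.52 and 11.8 in estrus, 11.8, 13.2 and 40.8 in metestrus, and 30.7, 29.4 and 4.5 in diestrus, and was 4.06 ± 0.88 (adjusted p = 0.0228) higher in metestrus than in proestrus. Krt4, Krt5, Krt6a, Krt6b, Krt14, Krt15 and Krt16, which belong to stratified or basal epithelia, stood at 3 counts or fewer in every library. Of 18 regulators of epithelial identity, 14 were tested, and against estrus 8 were lower in diestrus and 2 were higher. Elf3, an ETS factor of epithelia, stood at 230.5, 291 and 236 CPM in proestrus, 297, 282 and 346 in estrus, 91.1, 62 and 16 in metestrus, and 19.3, 16.7 and 23.6 in diestrus, and fell by 3.96 ± 0.42 (adjusted p = 4.79e-05) from estrus to diestrus. St14, the membrane protease matriptase, fell by 2.31 ± 0.25 (adjusted p = 4.97e-05), and Spint2, an inhibitor of such proteases, fell by 1.92 ± 0.24 (adjusted p = 0.000135). Ovol2, a repressor of mesenchymal genes, went from 21.5, 24.6 and 19.6 CPM in proestrus to 1.98, 1.96 and 2.81 in diestrus. The genes higher in diestrus, named after their values were seen, were Zeb1 and Snai1, repressors of Cdh1 in other tissues, by 0.89 ± 0.21 (adjusted p = 0.00729) and 1.85 ± 0.42 (adjusted p = 0.00659). Zeb1 is also made by stroma.

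Markers of the cells a whole uterus can hold were set beside the members. Over all genes tested, 23.2% differed in the F test. The 7 epithelial markers Epcam, Cdh1, Krt8, Krt18, Krt19, Cldn3 and Cldn4 are members themselves, so their values cannot check the label of the set. They had counts in every library, with Cldn4 at 5, 3 and 2 counts in proestrus, and 7 of 7 differed in the F test. Of 6 luminal markers 5 differed, and their sum, mostly Calb1, lay at 1747 to 1849 CPM in proestrus, 1423 to 2118 in estrus, 1505 to 1927 in metestrus and 1206 to 1720.3 in diestrus. Calb1 itself was not called (adjusted p = 0.593). Of 10 stromal markers 4 differed, with sums of 13659 to 13882 CPM in proestrus, 10935 to 11501 in estrus, 7023 to 15286 in metestrus and 9254 to 12873 in diestrus. Of 8 smooth muscle markers 5 differed, with 6492 to 9129.7, 8669 to 11162, 5567 to 7856 and 6596 to 6933 CPM in the same order. Of 8 endothelial markers edgeR called 0 in the F test and DESeq2 called 0, and 3 had an unadjusted p under 0.05, with sums from 1349 to 1512 CPM in diestrus to 1551 to 2088 in estrus. Of 10 leukocyte markers 5 differed, and the sum went from 97.4 to 142 CPM in proestrus to 265 to 354 in estrus. Of 8 proliferation genes 4 differed, with 395 to 599 CPM in proestrus, 134 to 152 in estrus, 103 to 559 in metestrus and 329 to 343 in diestrus.

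Of 6 glandular markers 3 were tested and all 3 differed in the F test, where 23.2% of all genes tested did. The sum of the 6 reached 918 CPM in metestrus 7 against at most 134 CPM in diestrus and 96.5 in estrus. Of 6 mesothelial markers Wt1 differed, which stroma also makes, while the sums overlapped at 60.04 to 80.6 CPM in estrus and 79 to 115 in diestrus. Of 12 markers of the stratified epithelium of cervix or vagina edgeR and DESeq2 called 0 and 0 had an unadjusted p under 0.05, with 1 tested, Krt10. In that list 8 stood at 3 counts or fewer in every library, Krt5, Krt14 and Trp63 among them. Of 8 markers of the ciliated oviduct 2 were tested and Ovgp1 differed. Of 5 adipocyte and 8 ovary markers 1 each was tested, and neither edgeR nor DESeq2 called it, nor was its unadjusted p under 0.05. The adipocyte sums stayed at or under 16.6 CPM and the ovary sums at or under 29.5 CPM in every library. The part of these markers in the members' differences was not tested.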

How the data were processed

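In all, 12 whole-uterus libraries, 3 in each of 4 stages, were profiled by 3' TagSeq. Per the file headers, the deposited tables give estimated counts and TPM per transcript, with transcript lengths in bases. The submitters' processing notes name FastQC, kallisto and DESeq2. The transcript set, its build, the options and the use of strand are not given in the sources used here. Estimated counts, which the authors deposited unscaled, were summed to 35896 genes with a GENCODE annotation of GRCm38 that matched 97.68% of transcripts. Unmatched transcripts held 0.619% to 0.774% of counts and were left out. Sums were rounded to whole numbers.

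Genes passing edgeR's filter on low counts in the smallest stage numbered 12052. They were scaled by TMM and fitted with 1 coefficient per stage over all 12 samples by edgeR's quasi-likelihood test (edgeR 4.0.16, R 4.3.3), with Benjamini-Hochberg adjustment over the 12052 genes. An F test over stages and 6 contrasts were taken. Alternatives were other size factors (RLE, or library totals), no filter, DESeq2 1.42.0, counts rebuilt from the TPM values that the authors deposited, the 6 samples of a comparison, and leaving out each library. No column of per-sample values was set aside.

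The 38 genes and the comparison lists were chosen with earlier results of these data known. Every member is accounted for. Values per sample are given for members called in any test, and non-members are named from those lists, at most 4 called genes each by smallest p, or as defining markers. Promoter windows are RefSeq's on GRCm38.p6. Sequence shared between genes was counted in stretches of 31 bases of the annotated transcripts. Results on some genes of these lists are not reported here.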

Additional observations from a re-analysis of the deposited data

How the results depend on the processing

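None of the 82 called fold changes of members turned its sign in any fit that tested it. These fits reuse the libraries that gave the calls, so a kept sign is a weak check. Over all alternatives a call was kept 1231 times and lost 257 times. With counts rebuilt from TPM, where 9 members failed the filter, 11 fold changes were not tested. With only the 6 samples of a comparison 4 were not tested. The F test called 18 members with counts rebuilt from TPM in place of 28, and 25 to 31 with 1 library left out. Over all genes it called 1676 with counts rebuilt from TPM, where 9683 were tested, in place of 2793. With 1 library left out it called 1909 to 3428. With counts rebuilt from TPM, 4 members were called between metestrus and estrus, 15 between proestrus and diestrus and 5 between metestrus and proestrus, in place of 13, 25 and 13. Over all genes the calls were 407, 542 and 157, in place of 910, 1026 and 519. Fitting only the 6 samples of a comparison called 9 between estrus and proestrus in place of 4, 5 between metestrus and estrus, and 2 between metestrus and proestrus. Over all genes these fits called 2788, 297 and 42, in place of 2065, 910 and 519. Without the filter on low counts, 7 were called between estrus and proestrus and 4 between diestrus and metestrus, where DESeq2 called 5 and edgeR 0. Over all genes, calls without the filter were 2148 in place of 2065 between estrus and proestrus. Between diestrus and metestrus they were 256 without the filter and 148 with DESeq2, in place of 27. The cause of these shifts was not tested. With 1 library left out, the counts ran from 2 to 7 for estrus against proestrus, 4 to 17 for metestrus against estrus, 0 to 1 for diestrus against metestrus, 15 to 26 for proestrus against diestrus, 2 to 17 for metestrus against proestrus, and 19 to 27 for diestrus against estrus. Calls over all genes, in the same order, were 1101 to 2412, 339 to 1364 and 5 to 173. Then came 519 to 1281, 78 to 1082 and 1913 to 3144.

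Estrus and diestrus share the numbers 3, 4 and 5 in their titles. Deviations from the stage mean correlated at -0.0433, 0.0131 and -0.0166 for samples of the same number, so the numbers were not taken as pairs. With the number as a replicate block, 26 members were called lower in diestrus in place of 27, and Cgn was lost (adjusted p = 0.0767). Depth limits Evpl, Pard6b, Cldn1, Pkp3 and Cldn4 most, with 110 to 175 counts each over the 12 libraries.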

Other observations

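Gland products stood apart in single uteri. Spink1, a secreted protease inhibitor, was at 475 CPM in metestrus 7 and 60.9 CPM in diestrus 4, and at or under 2.81 CPM in the other 10 libraries. Prss29, a secreted serine protease of uterine glands, was at 295 CPM in metestrus 7 and at or under 2.46 CPM elsewhere, and its relative Prss28 was at 77.0 CPM there and at or under 0.515 CPM elsewhere. Metestrus 7 was also the metestrus library with the lowest value for 22 of the 38 epithelial genes. None of these 3 gland genes passed the filter on low counts. Cxcl15, a chemokine of glands, was at 0 CPM in all 3 proestrus libraries, at most 3.07 CPM in estrus, and at 41.6, 34.4 and 17.4 CPM in diestrus.

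Prom1, a membrane protein of apical protrusions, was at 154, 211 and 209.7 CPM in estrus and between 16.9 and 41.3 CPM in the other 9 libraries. Krt20 was at 1.23, 18.7 and 7.28 CPM in estrus and at or under 1.18 CPM elsewhere, below the filter.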
